A study of Drosophila melanogaster with 28 samples.

Results

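In fly testes that lacked Mettl1, 66 of 18851 transcript entries combined a higher RNA-seq level with ribosome footprint levels that were no higher than in wild type. Ribosome footprints are mRNA fragments shielded from nuclease by a bound ribosome, and their count reports how much a transcript is occupied by ribosomes. The members were chosen from levels in CPM, counts scaled to a common library total, and from the change, the log2 ratio of the mean in knockout (KO) to the mean in wild type (WT) after adding 1 CPM. A member had a mean WT footprint level of at least 10 CPM in both testis sets, an RNA-seq change of at least 0.6 in set 1 and a footprint change of 0 or less in both sets. Of the 18851 entries, 9254 passed the 10 CPM floor, and 558 of these, or 6.03%, had the RNA-seq gain. Among the 558, 66 (11.8%) had no footprint gain in either set and form the group described here. A further 427 had a footprint change above 0 in both sets, and 65 had changes on opposite sides of 0. The set 1 RNA-seq and the footprints of both sets therefore chose the members, and their values below are a description without a test.

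Mettl1 is the catalytic subunit of a methyltransferase that places 7-methylguanosine in the variable loop of a subset of tRNAs. Loss of this mark is known in other systems to destabilise some tRNAs and to slow ribosomes at the codons they read. In the Drosophila male germline, many transcripts are made in spermatocytes, stored, and translated only later in spermatids, so that RNA level and ribosome occupancy of a transcript are often set at different stages.

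The KO males carried a Mettl1 knockout allele, which the protocol names Mettl1KO1, and the WT males were y1 w1118. Adults aged 2 to 3 days gave the testes, and each sample pooled 600 pairs dissected in 100 µg/ml cycloheximide. Testis was sampled in 2 sets, each with 2 KO and 2 WT libraries for RNA-seq and the same for footprints. Body was sampled with 2 libraries per assay from each of the lines labelled KO1 and KO2 and from WT. The digit that follows the genotype in testis titles was taken as a replicate number, and it may instead name the line, in which case the spread between KO replicates includes a difference between lines. The labels do not say whether body samples still held testes. Nothing in the labels says that the libraries of a group came from separate cohorts of flies, so the p-values measure the spread between these samples only.

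Depth differed by assay and set. Over the kept entries, libraries held 11486631 to 17707128 counts for set 1 RNA-seq, 410019 to 3386070 for set 1 footprints and 6732034 to 13217075 for set 2 footprints. Body footprint libraries held 2033209 to 9936190 counts. RNA-seq was shallow in set 2, at 149745 to 209202 counts, and in body, at 49608 to 95749 counts. The deposited identifiers are FlyBase transcripts that the sources used here do not pair with genes. The members are therefore described by identifier or by the value of the deposited length column, and gene functions, sequences, cell type markers and the Mettl1 transcript itself were not analysed here.

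The 66 members stood for 107 of the listed transcripts. By near-equal counts at nearby positions in the list, defined as counts within 10% and at most 50 lines apart, the members fell into 58 groups, 8 of them pairs. Reads of a shared or neighbouring locus may have been counted for both entries of a pair. The 2 members with a length value of 733 had equal counts in every library but lay further apart in the list, and were left as separate groups. The members are thus at most 58 separate loci by this measure.

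Summed over the members, RNA-seq of set 1 reached 25606 and 23324 CPM in the KO testis libraries, against 14623 and 14704 CPM in the WT libraries. The KO mean was 1.67 times the WT mean. Footprints of set 1 summed to 4849 and 5562 CPM in KO and to 8846 and 8591 CPM in WT, a ratio of 0.597. The knockout testes thus held more of these transcripts and fewer of their footprints in CPM, and the KO and WT libraries did not overlap in either assay. In set 2 the footprints summed to 6111 and 5259 CPM in KO and to 9900 and 10398 CPM in WT, a ratio of 0.560. Whether fewer cells of a type or less RNA per cell lies behind a level cannot be told apart in such bulk samples. The sum was not carried by 1 transcript: the member with the highest footprint level held 11.3% of the summed WT footprints in set 1 and 13.4% in set 2, and the highest 5 held 35.1% and 37.8%.

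**Figure D1:**
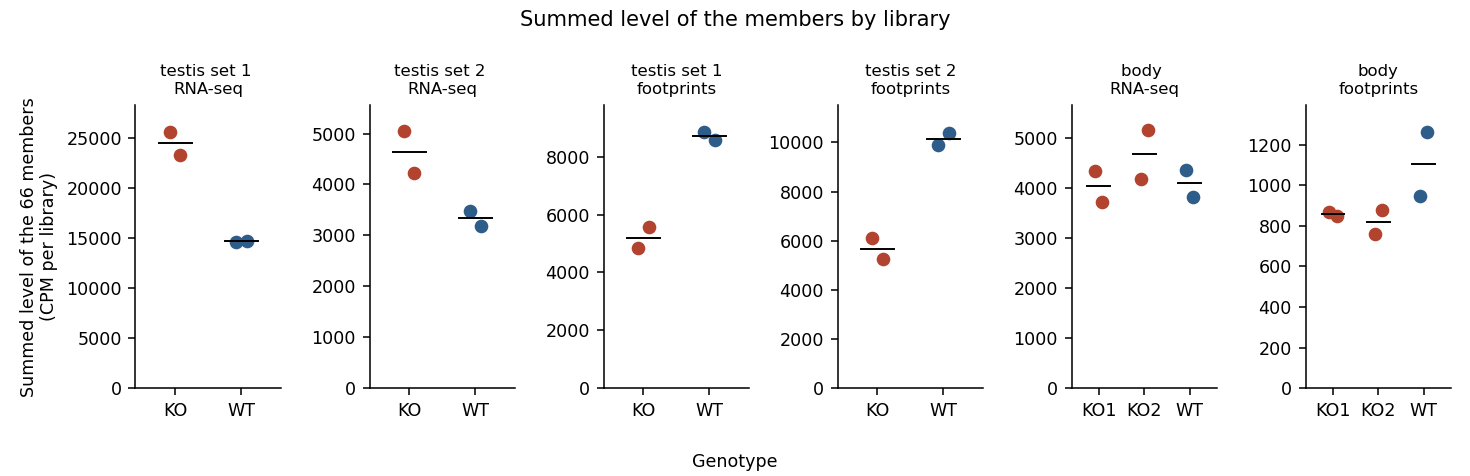
Summed level of the 66 members in CPM (vertical axis, linear, from 0 in each panel) for each library by genotype, with 1 panel per tissue, set and assay. Points are libraries and the line is the mean of the 2. The KO testis libraries lie above WT in set 1 RNA-seq and below WT in the footprints of both sets.

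The median member had an RNA-seq change of 0.72 in set 1, with a range of 0.60 to 1.56, where the median over all 9254 entries past the floor was -0.21. Its footprint change was -0.58 in set 1 and -0.62 in set 2, where the medians over entries past the floor were 0.16 and 0.10. Footprint changes of members ran down to -3.29 in each set. The gap between the RNA-seq change and the mean footprint change had a median of 1.35 and a range of 0.66 to 3.92. The RNA-seq gains spanned a narrower range than the footprint changes, but the rule cut both measures, so nothing is read from this contrast. An RNA-seq change of 1 or more was found in 8 members (12.1%), against 1.33% of entries past the floor. The rule set a minimum on this change, so nothing is read from the share.

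Both KO libraries lay above both WT libraries in set 1 RNA-seq for 66 of 66 members, a pattern that 25.9% of entries past the floor showed. Both KO libraries lay below both WT libraries for 49 members in set 1 footprints, against 22.3% of entries past the floor, and for 52 members in set 2 footprints, against 29.7%. All 3 separations held for 43 members, against 2.95% of entries past the floor. The rule fixed these directions, so nothing is read from the counts. The footprint loss was deep in some members and slight in others. A footprint change of -1 or less in both sets was found in 15 members, against 4.48% of entries past the floor. A change between -0.25 and 0 in at least 1 set was found in 25 members, against 27.3%. The rule cut these changes at 0, so nothing is read from either share. Among entries past the floor, 38.3% had a footprint change of 0 or less in set 1, 40.9% in set 2 and 25.1% in both.

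The 2 testis sets gave the members similar footprint changes. Across the 66 members, Pearson's r between the footprint changes of set 1 and set 2 was 0.82 and Spearman's rho was 0.72. Across all entries past the floor they were 0.59 and 0.52. The libraries of the sets are separate, but the rule limited both changes to 0 or less, so nothing is read from the members' higher values. Between the RNA-seq change and the footprint change, r was 0.12 for set 1 and 0.17 for set 2 across the members, and 0.56 and 0.25 across all entries past the floor. The rule cut both measures in the members, so nothing is read from their lower r.

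**Figure D2:**
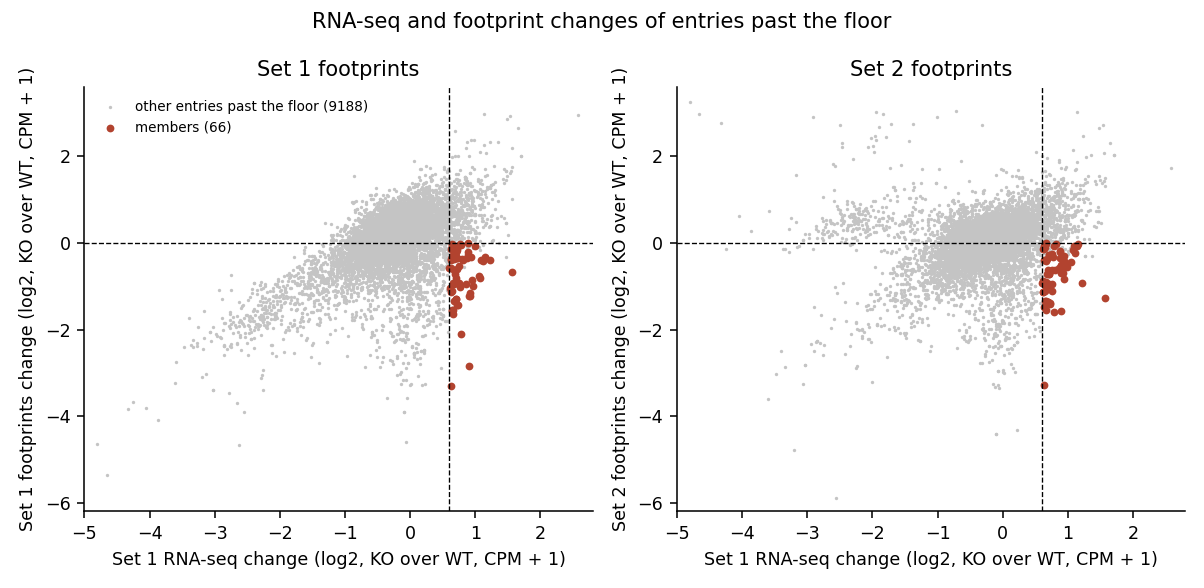
Footprint change (vertical axis) against set 1 RNA-seq change (horizontal axis), both log2 of KO over WT with 1 CPM added, for set 1 footprints (left) and set 2 footprints (right). Red points are the 66 members, grey points the other entries past the floor, and dashed lines the limits of the rule at 0.6 and 0. The members fill the lower right corner, and most of them lie close to the RNA-seq limit.

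The thresholds cut through a continuous range. The 3 members just inside the RNA-seq limit had changes of 0.60, 0.61 and 0.62, and the nearest entries outside it had 0.596, 0.591 and 0.589. Just inside the footprint limit, the members had changes of -0.0017, -0.013 and -0.027 in set 1 and of -0.0084, -0.015 and -0.026 in set 2. Entries just outside had 0.0079, 0.011 and 0.012 in set 1 and 0.0029, 0.022 and 0.026 in set 2. At the floor, the lower of a member's 2 WT footprint means was 11.1, 14.4 and 15.2 CPM for the lowest members, and 8.75, 8.10 and 7.98 CPM for the nearest entries outside.

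Scaling with trimmed means (TMM) in place of library totals moved the median change of entries past the floor by 0.16 in RNA-seq, -0.20 in set 1 footprints and -0.14 in set 2 footprints. The median change of the members was then 0.89 in RNA-seq, -0.77 in set 1 footprints and -0.76 in set 2 footprints. The shifts run in the direction of the rule, so that all 66 members still satisfied it, with 184 entries in all, is no sign of stability.

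The largest gap between transcript and footprint change belonged to FBtr0079379, an entry with a length column value of 36. Its RNA-seq level in set 1 was 308 and 259 CPM in KO testes, against 182 and 185 CPM in WT testes. Its footprints were 26.8 and 28.6 CPM in KO and 271 and 291 CPM in WT in set 1, and 63.3 and 41.8 CPM in KO and 441 and 602 CPM in WT in set 2. The footprint change was -3.29 in each set, beside an RNA-seq change of 0.63, with no overlap between KO and WT in any of the 3 contrasts. The set 1 footprint levels in KO rested on 11 and 32 counts.

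The next largest gap was that of FBtr0302267, with a length value of 461. In set 1 RNA-seq it had 172 and 143 CPM in KO and 86.8 and 80.9 CPM in WT. Footprints were 12.2 and 2.69 CPM in KO and 69.7 and 48.4 CPM in WT in set 1, and 17.7 and 12.5 CPM in KO and 50.3 and 43.2 CPM in WT in set 2. The KO libraries were higher in RNA-seq and lower in both footprint sets, without overlap, and the changes were 0.90, -2.83 and -1.57. Only 5 and 3 counts stood behind its KO footprints in set 1.

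FBtr0301683, with a length value of 342, showed a shallower loss at a higher level. Its RNA-seq level in set 1 was 423 and 396 CPM in KO and 269.5 and 265 CPM in WT. Its footprints were 183 and 173 CPM in KO and 359 and 378 CPM in WT in set 1, and 208 and 174 CPM in KO and 429 and 418 CPM in WT in set 2. The libraries of the genotypes did not overlap, and the changes were 0.61 in RNA-seq, -1.05 in set 1 footprints and -1.14 in set 2 footprints. Replicates of a genotype lay close together in each assay.

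FBtr0078096, with a length value of 704, is described because it was the member called in the set 2 RNA-seq, and was chosen after its values were seen. In set 1 RNA-seq it had 490.4 and 440.5 CPM in KO and 213 and 223 CPM in WT, a change of 1.09. Its footprints were 63.4 and 63.5 CPM in KO and 91.8 and 74.5 CPM in WT in set 1, and 84.6 and 62.1 CPM in KO and 72.0 and 81.1 CPM in WT in set 2. The genotypes separated in set 1 footprints and overlapped in set 2. Its RNA-seq change was thus among the 8 of 1 or more, beside small footprint changes of -0.38 and -0.06.

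The member with the highest WT footprint level, by the mean of both sets, had a length value of 256. Its RNA-seq level in set 1 was 973 and 908 CPM in KO and 599 and 622 CPM in WT. Its footprints were 461 and 431 CPM in KO and 913 and 1052 CPM in WT in set 1, and 668 and 583 CPM in KO and 1335 and 1395 CPM in WT in set 2. All KO libraries lay outside the WT range in the direction of the rule. The next highest by that mean, with a length value of 515, was the most abundant member by set 1 RNA-seq, at 3233 and 2943 CPM in KO and 1876 and 1928 CPM in WT. Its footprints were 454 and 482 CPM in KO and 833 and 803 CPM in WT in set 1, and 454 and 465 CPM in KO and 698 and 717 CPM in WT in set 2. Here too the genotypes did not overlap.

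The largest RNA-seq change was found in an entry with a length value of 80. It had 114 and 97.9 CPM in KO and 37.7 and 32.5 CPM in WT. Its footprints were 14.6 and 16.1 CPM in KO and 23.6 and 26.1 CPM in WT in set 1, and 16.4 and 14.1 CPM in KO and 34.4 and 41.9 CPM in WT in set 2. Transcript and footprint levels both separated by genotype, in opposite directions. The KO footprints of this entry in set 1 rested on 6 and 18 counts.

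**Figure D3:**
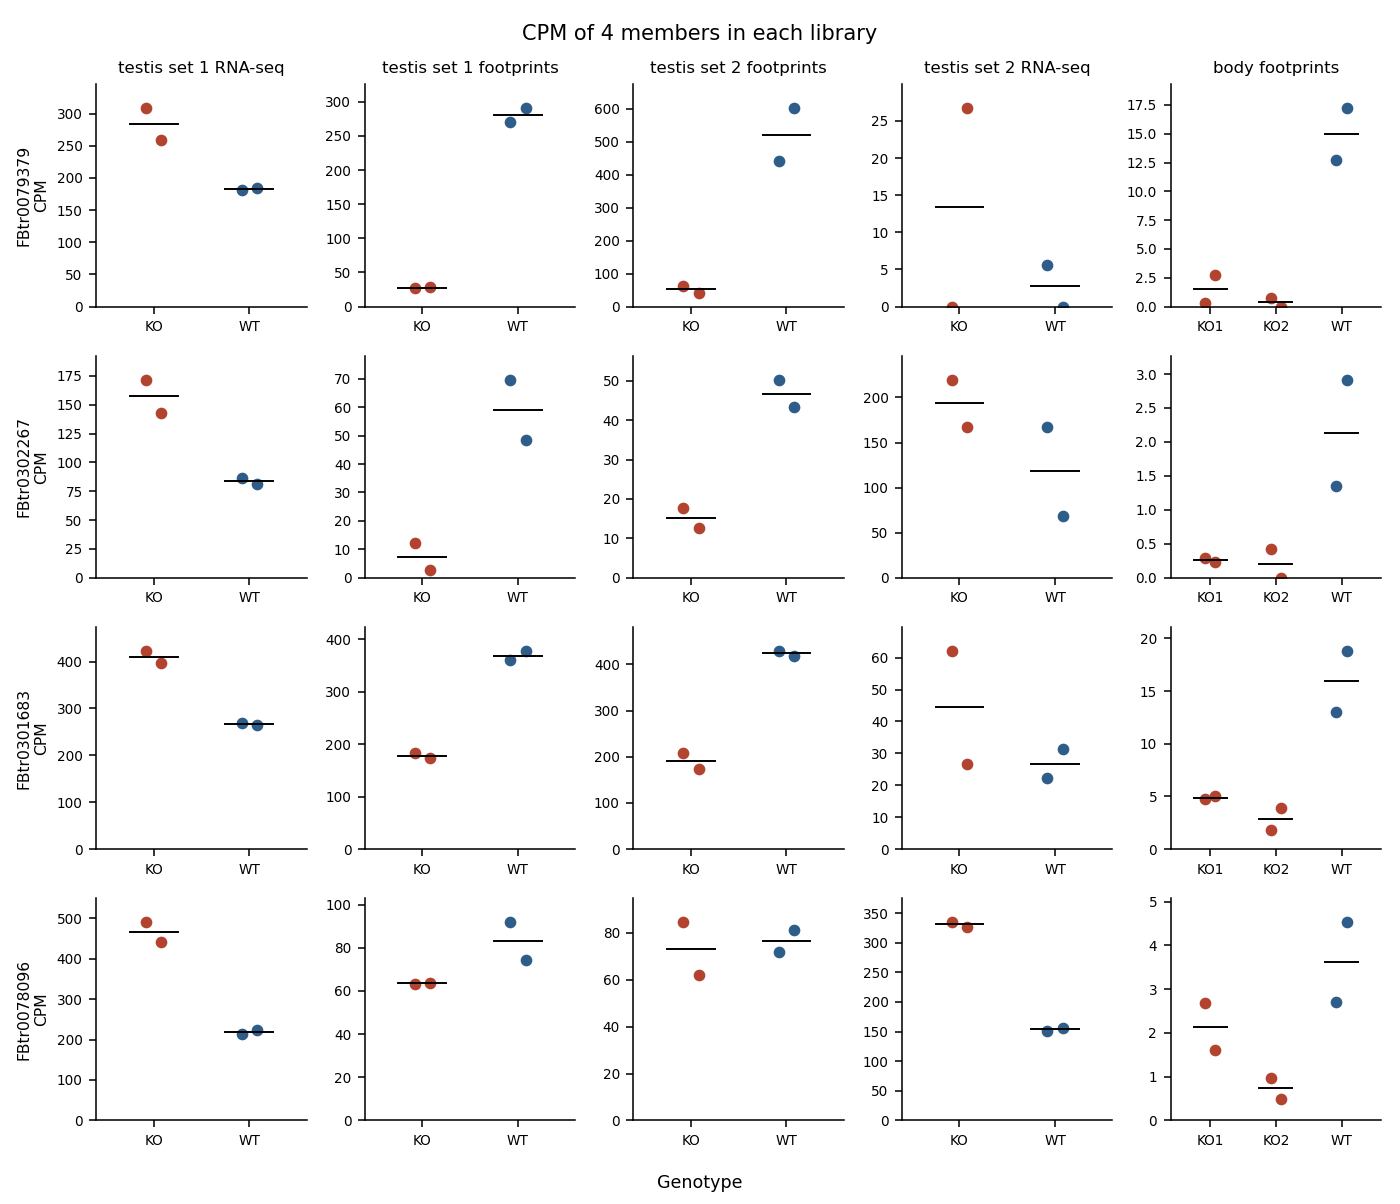
Level in CPM (vertical axis, linear, from 0 in each panel) of the 4 members named by identifier, 1 row of panels each, in every library by genotype for the assays given above the columns. Points are libraries and lines are means of 2. FBtr0079379 has the deepest footprint loss, and FBtr0078096 overlaps between genotypes in set 2 footprints.

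In WT, members were abundant transcripts with few footprints for their RNA level. The median WT RNA-seq level in set 1 was 175 CPM for members and 42.1 CPM for all entries past the floor. Median WT footprint levels were 85.8 and 38.9 CPM in set 1 and 95.5 and 42.2 CPM in set 2, for members and for entries past the floor. The log2 ratio of WT footprints to WT RNA-seq in set 1 had a median of -0.87 in members and 0.02 over entries past the floor. Footprint CPM exceeded RNA-seq CPM in WT for 14 members (21.2%), against 50.7% of entries past the floor. The 427 entries with both gains stood at 23.7%, near the members. In KO the ratio had a median of -2.44 in members and 0.39 over entries past the floor. These ratios share their libraries with the rule and are given without a test.

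The rule used the length column only to keep entries that have a value. Its median was 449 in members, with a range of 36 to 1416, and 446 over entries past the floor. With 1 member from each of the 58 groups of near-equal counts, the median was 364. Values under 100 were found in 6 members (9.09%) and in 4.52% of entries past the floor. Values of 1000 or more were found in 5 members (7.58%) and in 16.4% of entries past the floor.

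The members were mostly transcripts with far more footprints in testis than in body. In WT, the log2 ratio of footprints in testis set 2 to body had a median of 3.86 in members, with a range of -2.32 to 5.31, and 0.99 over entries past the floor. The ratio was at least 4-fold in favour of testis in 51 members (77.3%), against 33.3% of entries past the floor and 63.0% of the 427 entries with both gains. It was at least 16-fold in 32 members (48.5%), against 16.4% and 33.0%. Levels within 2-fold between the tissues were found in 4 members, or 6.06%, where 36.2% of entries past the floor lay in that range. One member, with a length value of 595, ran the other way. In WT body it had 156 and 181 CPM of footprints, against 34.0 and 31.9 CPM in WT testis of set 2. The floor of the rule was set on testis footprints, so the tissue levels are a description.

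**Figure D4:**
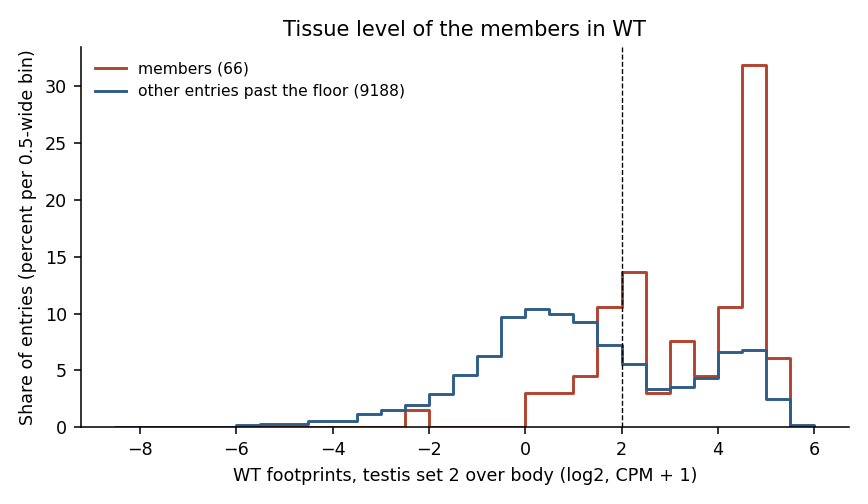
Share of entries in percent per bin of 0.5 (vertical axis) by the log2 ratio of WT footprints in testis set 2 to WT footprints in body, with 1 CPM added (horizontal axis), for the 66 members (red) and the other entries past the floor (blue). The dashed line marks a 4-fold ratio. The members gather at high ratios, and 51 lie at or beyond the line.

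The RNA-seq of testis set 2 was not used by the rule and asks whether the transcript gain appeared in other libraries. The members leaned towards higher levels, and few could be tested. Summed over the members, the level was 5048 and 4234 CPM in KO and 3478 and 3191 CPM in WT, a ratio of 1.39 without overlap. Mean levels were higher in KO for 52 of the 66 members, where 52.2% of entries past the floor were higher. Both KO libraries lay above both WT libraries for 22 members (33.3%), where 21.1% of entries past the floor did, and both lay below for 0 members, where 15.5% did. Where the libraries of a member separated by genotype, KO was thus the higher. Of the 427 entries with both gains, 64.4% had a higher mean in KO. Both KO libraries lay above WT for 32.6% of them and below for 10.8%. The lean to higher levels was thus shared by entries with the same set 1 RNA-seq gain.

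At this depth 25 of the 66 members could be tested with edgeR's quasi-likelihood test and Benjamini-Hochberg adjustment, and the filter itself favours members that are high in a genotype. At an adjusted p under 0.05, 1 member rose and 0 fell, where 10.1% of all 2969 entries tested rose and 10.2% fell. The share of members called was not above that background. The median change of the tested members was 0.38, with a range of -0.51 to 1.49, and 0.03 over all entries tested. The change was below 0 in 5 of the 25, where 48.0% of entries tested were below 0. Of the 427 entries with both gains, 146 were tested, with a median of 0.28 and 32.2% below 0. Of the 65 with footprint changes on opposite sides of 0, 27 were tested, with a median of 0.49 and 14.8% below 0. Without the low-count filter, 1 member rose and 0 fell, against 1.59% and 2.35% of entries tested that way. With DESeq2, 0 members were called, where 112 of the 2969 entries rose and 181 fell. The number of members called also changed when 1 library was left out. The median change of the members tested was 0.29 without KO replicate 1 and 0.69 without KO replicate 2. Over all entries tested it was -0.05 and -0.01. Between 19 and 34 members reached 10 counts in a library of this set.

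FBtr0078096 was the member that rose. It had 335 and 327 CPM in KO testes of set 2 and 150.5 and 156 CPM in WT testes. The genotypes did not overlap, and the change was 1.13 with a standard error of 0.24 (edgeR quasi-likelihood test, adjusted p = 0.00958). With DESeq2 the adjusted p was 0.114, and without WT replicate 1 or 2 the edgeR adjusted p was 0.0699 or 0.0869, so the call rests on both WT libraries. FBtr0302267 had 219.9 and 167 CPM in KO and 167 and 68.8 CPM in WT, and the genotypes overlapped slightly. Its change of 0.73, with a standard error of 0.40, did not pass the edgeR test (adjusted p = 0.228). FBtr0079379 held 0 and 4 counts in KO and 1 and 0 counts in WT, too few for a test, although its counts in the set 1 RNA-seq libraries ran from 2086 to 5458. In CPM, which scales for depth, its WT level was 5.57 and 0 in set 2, against 182 and 185 in set 1. Its KO level was 0 and 26.7 CPM in set 2, against 308 and 259 CPM in set 1. The cause of this difference between the sets was not tested. Across the 66 members in WT, Spearman's rho between RNA-seq and footprints was 0.26 in set 2 and 0.69 in set 1. Over entries past the floor it was 0.30 and 0.78, so the lower rho in set 2 was not particular to the members.

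Body footprints, also outside the rule, gave the members values in samples labelled body, from lines labelled KO1 and KO2. Whether these samples still held testes is not stated. All calls among the members were to lower levels. In the KO1 body 7 of the 47 members tested fell and 0 rose, and in the KO2 body 11 fell and 0 rose (edgeR quasi-likelihood test, adjusted p under 0.05). Over all 13840 entries tested, 2.13% fell and 1.02% rose in KO1, and 2.86% fell and 1.71% rose in KO2. With 1 member per group of near-equal counts, 7 of 40 fell in KO1 and 11 of 40 in KO2. Of the 11, the members with length values of 376 and 345 had near-equal body counts and may share reads. In WT body they held 27 and 107 counts, and 27 and 120 counts. Both lines were compared with the same 2 WT libraries, so their counts are not independent of each other. Without WT replicate 2 fewer members were called in both lines, and so were fewer of all entries. In KO1 the calls also fell without either KO1 replicate and rose without either KO2 replicate, among the members and among all entries. In KO2 fewer members were called without KO2 replicate 1. Without WT replicate 2 the median change of the 47 members tested was -0.16 in KO1 and -0.31 in KO2. Over all entries tested it was 0.01 in each line. DESeq2 called 4 members lower in KO1 and 6 in KO2, where 168 and 225 of the 13840 entries were called lower.

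The sum over the members was 869 and 851 CPM in KO1, 758 and 879 CPM in KO2 and 949 and 1264 CPM in WT. KO libraries lay below both WT libraries, at 0.777 times the WT mean in KO1 and 0.740 times in KO2. The largest part of the WT sum came from the body-biased member with a length value of 595. It had 105 and 110 CPM in KO1, 101 and 119 CPM in KO2 and 156 and 181 CPM in WT. Reads shared within pairs of near-equal counts may enter the sums more than once. The median change of the 47 members tested was -0.16 in KO1, with a range of -3.12 to 0.18, and -0.45 in KO2, with a range of -4.72 to 0.19. The change was below 0 in 38 of the 47 in each line, where 49.8% of entries tested were below 0 in KO1 and 48.4% in KO2. The changes of the tested members thus reached much further below 0 than above it.

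Because the filter keeps a member that is present in WT alone, the same was asked of all 66 members without it. The median change was then -0.64 in KO1 and -0.66 in KO2, lower than over the 47, beside medians of -0.01 and 0.00 over all 18437 entries so tested. Of the 66 members, 13 fell in KO1, against 2.99% of entries tested that way, and 19 fell in KO2, against 3.11%. In either line 0 rose, against 1.56% of entries in KO1 and 2.10% in KO2. By mean CPM, 55 members were lower in KO1, where 59.4% of entries past the floor were, and 54 in KO2, where 58.7% were. Both KO libraries lay below both WT libraries for 34 members in KO1, against 27.7% of entries past the floor, and for 35 in KO2, against 27.6%. Both lay above for 0 members in either line, against 13.9% and 13.4%. The 19 members that could not be tested had a median WT body level of 1.30 CPM.

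**Figure D5:**
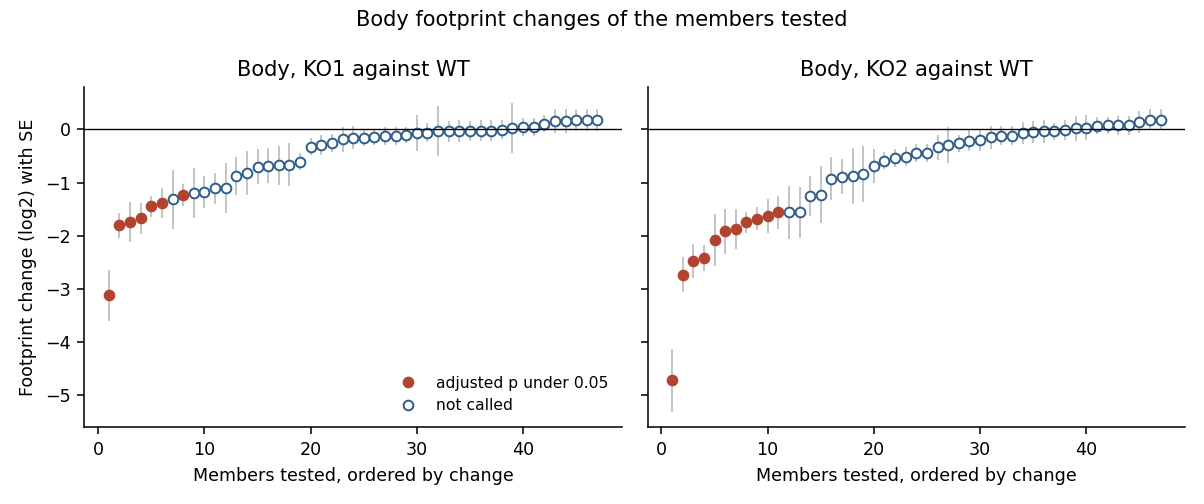
Footprint change in body (vertical axis, log2 of KO over WT from edgeR, with its standard error as a grey bar) of the 47 members tested, ordered by change (horizontal axis), for KO1 (left) and KO2 (right). Filled points had an adjusted p under 0.05 and open points did not. All filled points lie below 0, 7 in KO1 and 11 in KO2.

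The members called in body were strongly biased to testis. In KO1 the WT testis-to-body log2 ratio of the 7 called members ran from 4.65 to 5.03, with a median body WT level of 17.1 CPM and a median testis set 2 WT level of 521 CPM. In KO2 the ratio of the 11 called members was 4.07 or more. The testis bias was shared by many entries that fell in body. Among all entries past the floor with at least 4-fold more WT footprints in testis than in body, 180 of 2018 tested fell in KO1 (8.92%), and 7 of the 32 members among them did (21.9%). In KO2, 285 of the 2018 fell (14.1%) and 11 of the 32 members did (34.4%). The part that testis tissue in the body samples may have in these values was not tested.

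The 427 entries with the RNA-seq gain and a footprint gain in testis gave the opposite balance. Of 321 tested in body footprints, 12 rose and 1 fell in KO1, and 13 rose and 0 fell in KO2. The 65 entries with footprint changes on opposite sides of 0 leaned as the members did. Of 51 tested, 41 had a change below 0 in KO1 and 38 in KO2, with medians of -0.17 and -0.42. Few of them were called: 0 in KO1, and 1 fell in KO2. The lean below 0 was thus not particular to the members. The rule sorted both lists from the members by their testis footprints, not by body.

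FBtr0079379 had the largest fall in body. Its footprints were 0.298 and 2.74 CPM in KO1, 0.699 and 0 CPM in KO2 and 12.7 and 17.2 CPM in WT. Counts were 1 and 12 in KO1, 5 and 0 in KO2 and 47 and 171 in WT, so every KO library lay below both WT libraries. The change was -3.12 with a standard error of 0.49 in KO1 (edgeR quasi-likelihood test, adjusted p = 0.00347) and -4.72 with a standard error of 0.59 in KO2 (adjusted p = 0.000479). The KO1 call was lost with DESeq2, at an adjusted p of 0.289, and without WT replicate 2, at an edgeR adjusted p of 0.103. Among the 3 named members tested in body it had the lowest change, and among the 4 named it had the lowest in testis footprints of both sets.

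FBtr0301683 had body footprints of 4.77 and 5.03 CPM in KO1, 1.82 and 3.93 CPM in KO2 and 13.0 and 18.8 CPM in WT. No KO library reached the WT range. It fell by 1.67 in KO1, with a standard error of 0.29 (edgeR quasi-likelihood test, adjusted p = 0.00651), and by 2.73 in KO2, with a standard error of 0.33 (adjusted p = 0.000397). Without WT replicate 2 or either KO1 replicate the KO1 call was lost.

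The member with a length value of 256 had body footprints of 19.4 and 16.9 CPM in KO1, 13.3 and 17.7 CPM in KO2 and 39.8 and 61.0 CPM in WT. All KO libraries lay below WT, and it fell by 1.45 in KO1 (edgeR quasi-likelihood test, adjusted p = 0.00112) and by 1.75 in KO2 (adjusted p = 0.000264). It was the called member that kept its KO1 call without WT replicate 2. A further member, with a length value of 158, fell by 1.802 in KO1 (edgeR adjusted p = 0.00109) and by 2.42 in KO2 (adjusted p = 0.000149). In testis its footprints were 183 and 221 CPM in KO and 526 and 507 CPM in WT in set 1, and its RNA-seq 757 and 701 CPM in KO and 457 and 458 CPM in WT.

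FBtr0078096 had body footprints of 2.68 and 1.60 CPM in KO1, 0.979 and 0.492 CPM in KO2 and 2.71 and 4.53 CPM in WT. Counts were 9 and 7 in KO1, 7 and 1 in KO2 and 10 and 45 in WT. It fell by 2.07 in KO2, with a standard error of 0.49 (edgeR quasi-likelihood test, adjusted p = 0.0307), and its change of -0.82 in KO1 did not pass (adjusted p = 0.423). With DESeq2 the KO2 call was lost, at an adjusted p of 0.324. The call also ended when any 1 library other than KO2 replicate 2 was left out.

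In body as in testis the size of the footprint change varied between members. Across the 47 members tested, Pearson's r between body and testis footprint changes was 0.56 for set 1 and 0.62 for set 2 in KO1, and 0.55 and 0.61 in KO2. Spearman's rho was lower, at 0.19 and 0.29 in KO1 and 0.28 and 0.31 in KO2. The linear measure was thus higher than the rank measure. FBtr0079379 lay lowest in each, at -3.29 in both testis sets and at -3.12 in KO1 and -4.72 in KO2 body. The part of this member in r was not tested. The 47 members form 40 groups of near-equal counts. Coefficients over all entries past the floor were not computed, so nothing particular to the members is read from these values. Body and testis libraries are separate, and the lines share their WT libraries.

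Body RNA-seq could be tested for 6 of the 66 members, or for 5 with 1 member per group of near-equal counts. Members with length values of 1192, 1075, 904 and 739 were among the 6. Their identifiers lie close together, and they may share reads. With edgeR's quasi-likelihood test 0 members were called in either line, where 4.92% of 1706 entries were called in KO1 and 3.87% in KO2. At an unadjusted p under 0.05, 0 members passed in KO1 and 1 in KO2, where 299 and 268 of the 1706 entries did. DESeq2 called 0 members in each line, and 32 entries in KO1 and 35 in KO2. Summed levels were 4349 and 3729 CPM in KO1, 4188 and 5166 CPM in KO2 and 4368 and 3830 CPM in WT, and the groups overlapped. In WT the members of length 1192 and 1075 had 686 and 564 CPM, and 636 and 484 CPM. Those of length 904 and 739 had 619 and 383 CPM, and 435 and 323 CPM. The sums thus rest in large part on these members, whose reads may be counted more than once. Between 27 and 34 members held 0 counts in a library. At this depth a transcript difference in body was not detectable for most members.

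FBtr0301683 had body RNA-seq levels of 146 and 136 CPM in KO1, 112 and 90.6 CPM in KO2 and 318 and 222 CPM in WT, from 5 to 19 counts per library. All KO libraries lay below WT, and the changes of -0.93 in KO1 and -1.37 in KO2 did not pass the edgeR test (adjusted p = 0.330 and 0.199). FBtr0078096 had 613 and 491 CPM in KO1, 385 and 526 CPM in KO2 and 351 and 766 CPM in WT. The KO libraries lay inside the WT range, and neither change, 0.01 in KO1 nor -0.26 in KO2, passed the edgeR test (adjusted p = 0.986 and 0.796). FBtr0079379 held 0 counts in all 6 body RNA-seq libraries.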

How the data were processed

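The series holds 28 ribosome profiling and RNA-seq libraries of Drosophila melanogaster, in 14 groups of 2. The deposited values are whole-number counts per FlyBase transcript, which the authors made from reads handled with CASAVA 1.8 and STAR 2.7.0a on dm6, per the submitters' processing notes. Footprint libraries used preadenylated linkers with in vitro transcription for amplification, and RNA-seq used a SEQuoia Express kit, per the labels' protocols. The counting tool, its handling of strand and of multimapping reads and the annotation release are not given in the sources used here, so overlapping or near-identical genes are uncertain. The other deposited column, read here as a length, has no stated unit.

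Of 34703 listed transcripts, 30340 have a number in that column. In list order, an entry whose summed count lay within 5% of the last kept entry was dropped, which left 18851. CPM used totals of kept entries, with a pseudocount of 1 CPM in log2 changes. The other 4363 transcripts held 0 counts. Comparisons outside the rule used edgeR 4.0.16 in R 4.3.3: quasi-likelihood F-test, TMM, filterByExpr at a minimum count of 10 and Benjamini-Hochberg adjustment over all entries tested, with a call at an adjusted p under 0.05. Body fits held KO1, KO2 and WT together. The procedure was tested on simulated data. Alternatives were DESeq2 1.42.0 and its size factors, other filters, floors, pseudocounts and tolerances, TMM-scaled CPM, a replicate block, each body line alone, and leaving out libraries.

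Members named by identifier are the 2 with the largest gap and the 2 with the largest called fall in body footprints in either line (both in KO2), plus 1 chosen after its values were seen. The rule for naming would have named more had identifiers been paired with genes. The members, lists and tests were chosen with earlier results of these data known.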

Additional observations from a re-analysis of the deposited data

Results flagged for a closer look

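FBtr0301683 was higher in both KO libraries than in both WT libraries in set 1 testis RNA-seq and lower in all KO libraries than in both WT libraries in body RNA-seq. Its body RNA-seq log2 ratio was -0.94 in KO1 and -1.41 in KO2, from 10 and 13 counts in KO1, 9 and 5 counts in KO2 and 19 and 11 counts in WT. The difference between the tissues was not tested. The set 1 RNA-seq gain was a condition of the choice of members.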

How the results depend on the processing

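The rule found 184 entries with TMM-scaled CPM, all 66 members included, 58 to 88 under the other settings, and 49 to 82 when 1 library was left out. Of these settings, taking 1 member per count-sharing group (58) was chosen after seeing the data. The 1 member called in testis set 2 RNA-seq became 0 with DESeq2, and 0 to 3 when 1 library was left out. In body footprints, the 7 members called in KO1 became 4 with DESeq2, 13 without the low-count filter, 4 at a mean of at least 50 counts, and 1 to 13 when 1 library was left out: 1 without WT replicate 2, 3 and 4 without KO1 replicates 1 and 2, and 13 without either KO2 replicate. The 11 called in KO2 became 6, 19 and 4 under the same 3 settings, and 6 to 13 when 1 library was left out, with 6 without WT replicate 2 and 7 without KO2 replicate 1. No member was called in body RNA-seq under any alternative run. The cause of these differences was not tested.

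Over all entries, calls ranged from 240 to 716 in testis set 2 RNA-seq (604 as reported), 119 to 960 in body footprints of KO1 (436), 208 to 960 in KO2 (632), 7 to 117 in body RNA-seq of KO1 (84) and 6 to 79 in KO2 (66). The change of FBtr0078096 in body RNA-seq, which was not called, turned to -0.0057 with DESeq2, -0.42 without WT replicate 1 and -0.079 without KO1 replicate 1 in KO1, and to 0.41 without WT replicate 2 in KO2. Leaving out 1 library gave -0.42 to 0.70 in KO1 and -0.72 to 0.41 in KO2.

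Same-numbered libraries did not deviate together, with correlations of their deviations from -0.063 to 0.12, so the numbers are not shown to pair samples. With the replicate block, 1 member was called in testis set 2 RNA-seq, 7 in KO1 and 10 in KO2 body footprints, and 0 in body RNA-seq. RNA-seq depth of set 2 and body limits what could be tested there.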
